A study of Mus musculus with 32 samples.

Results

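A set of 359 transcripts had its highest levels, among 13 mouse clear cell sarcomas, in the 4 tumours that had been started with TATCre. The set was drawn from a table of 55419 transcripts, of which 17765 were above 0 in at least 1 clear cell sarcoma. A transcript belonged to the set if its lowest level in the 4 TATCre tumours was above its highest level in the other 9 clear cell sarcomas and its TATCre mean was at least 5 RPKM (reads relative to transcript length and library depth). Its TATCre mean plus 1 also had to be at least 2 times the mean of the other 9 plus 1. These rules held for 379 transcripts, and 20 were then dropped because their median over the 13 clear cell sarcomas, plus 1, was at least 4 times that of osteosarcoma, of synovial sarcoma and of control tissue. The members were thus chosen by their levels in clear cell sarcoma, so the difference between TATCre and the other 9 is a description here and was not tested. Of the 17765, 3.44% had every TATCre tumour above the other 9 and 2.13% met the rules before the drop, and nothing is read from these shares.

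RNA was sequenced from 32 mouse libraries. Of the clear cell sarcomas, TATCre started 4, Rosa26CreER 5, Prx1CreERT2 2 and Bmi1IRESCreERT2 2, and all 13 titles carry the code EA1, which the labels do not spell out. There were also 7 osteosarcomas, titled Rb1p53 with Col1Cre in 4 libraries and with Prx1Cre in 3. The 6 synovial sarcomas are titled Myf5-SSM2/PLUC, and some of them share the title number 37 or 39. The 6 control libraries are titled Chest in 5 cases and Bone in 1. The labels give no age, strain, sex or treatment, and do not say how many animals were used or which tissue the controls were, so the p-values below reflect the scatter among libraries, which may be technical in part.

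In patients, clear cell sarcoma arises in tendons and other soft tissues, is driven by a fusion of EWSR1 with the transcription factor ATF1, and can switch on genes of the pigment cell lineage. Cre is a recombinase that cuts and rejoins DNA at loxP sites, and in mouse models it is used to switch on an oncogene in chosen cells. TATCre is a Cre protein joined to a short peptide that carries it into cells near the place of injection, whatever genes they use. CreER and CreERT2 stay inactive until tamoxifen is given, and are here made from the Rosa26 locus, which most cells use, from Prx1 regulatory sequence, used in limb mesenchyme, or from Bmi1, a gene used by many stem and progenitor cells. The groups may therefore differ in where and when Cre acted.

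The TATCre titles end in RLN, Rleg, Lleg and Larm, words that may name a site, whereas no title of the other 9 clear cell sarcomas carries such a word. Site and Cre cannot be told apart here. The titles of the RLN and Rleg libraries share the number N123, and nothing says whether they came from 1 animal. Depth recovered from the RPKM steps was 9.17 to 11.5 M reads in the TATCre libraries and 8.11 to 11.02 M in the other 9, and it ran up to 13.1 M over all 32 libraries. The RPKM of all transcripts in a library summed to 1.137 to 1.373 M in the TATCre libraries and to 1.048 to 1.126 M in the other 9, so this sum moves with the group, and its part in the set was not tested. After median ratio scaling, which divides each library by the median of its ratios to a common profile, the same rule gave 400 transcripts, 342 of them shared with the 359.

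The table names transcripts by UCSC identifiers and does not pair them with gene names, and these identifiers matched no entry of the gene tables at hand. The tumour labels could therefore not be checked against marker genes, and the roles of single members cannot be given. The 2 members with the largest difference are called by identifier, and the others by their length in bases, which was recovered from the RPKM steps for 352 of the 359. The median length was 1130.5 bases over the members, from 3 to 7928, and 1206.5 over the 16386 transcripts with a recovered length. Of the members, 25 were shorter than 100 bases. For such short transcripts a single read is worth many RPKM, so their levels move in coarse steps. The sources used here do not say what the shortest lengths stand for.

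As a set, the members had their highest mean level in the 4 TATCre libraries. Their mean log2(RPKM + 1) was 5.93 in TATCre N123-RLN, 6.09 in N123-Rleg, 5.78 in N178-Lleg and 6.22 in N179-Larm. In the other 9 clear cell sarcomas it had a lowest value of 3.38, a median of 3.65 and a highest value of 3.90. It ran from 3.51 to 4.76 in osteosarcoma, with a median of 4.39, and from 3.93 to 4.88 in synovial sarcoma, with a median of 4.45. In control tissue it ran from 2.77 to 3.53, with a median of 3.16. No library outside the TATCre group reached the lowest TATCre value, while all 6 synovial sarcomas, 5 of the 7 osteosarcomas and 0 of the 6 controls lay above the highest of the other 9 clear cell sarcomas. The rule chose transcripts that were high in the TATCre libraries and low in these 9, and set no such limit on the other tissues. The lead of the TATCre libraries and the position of the other tissues relative to the 9 are therefore descriptions too. In bulk tissue, more cells of a type and more RNA per cell cannot be told apart.

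**Figure D1:**
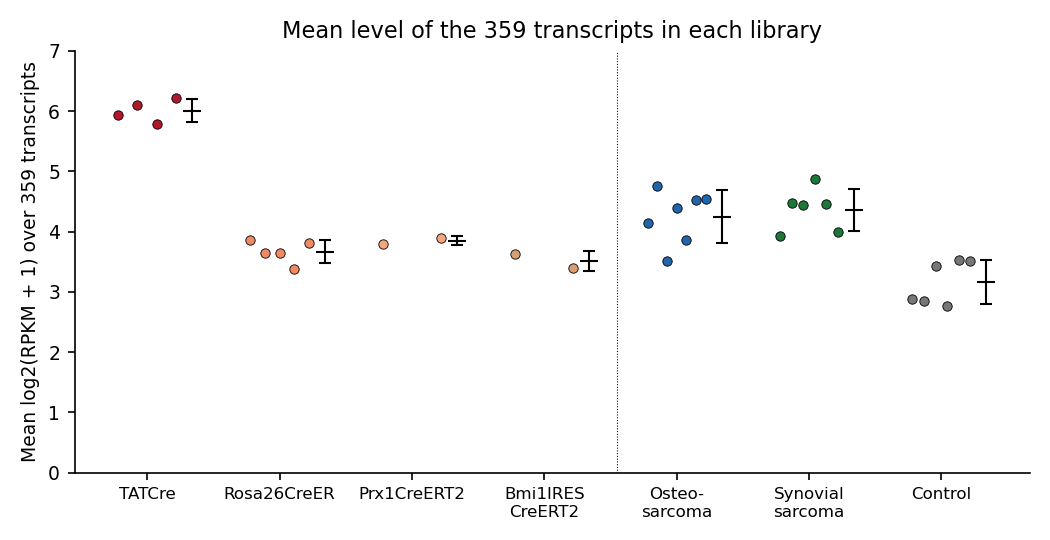
Mean log2(RPKM + 1) over the 359 members (vertical axis) in each of the 32 libraries, by group (horizontal axis). Points are libraries, and the bar beside each group is its mean ± SD. The 4 TATCre libraries lie between 5.78 and 6.22, the other 9 clear cell sarcomas between 3.38 and 3.90, and osteosarcoma and synovial sarcoma between 3.51 and 4.88.

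The members' share of the summed RPKM was larger in the TATCre tumours than in the other 9, a difference that the rule favours. The members summed to a mean of 124974 RPKM per TATCre library and of 34827 RPKM per library of the other 9. Without the members under 100 bases these means were 90591 and 23397 RPKM, so the difference did not rest on short members. In the TATCre libraries a member of 114 bases and a member of 3 bases had means of 21795 and 17461 RPKM. All members together held 8.43% to 12.4% of the summed RPKM in the 4 TATCre libraries and 2.19% to 4.44% in the other 9 clear cell sarcomas. By recovered reads, their share was 7.27% to 9.65% in TATCre and 1.69% to 3.17% in the other 9. The share of summed RPKM was 2.43% to 8.14% in osteosarcoma, 2.52% to 5.01% in synovial sarcoma and 1.103% to 2.05% in the controls. By recovered reads the share in osteosarcoma was 2.18% to 8.30%. The highest osteosarcoma value was that of Prx1Cre 38 by both measures. As a share of summed RPKM it lay just below the lowest TATCre library. By recovered reads it lay above N123-RLN with 7.47% and N178-Lleg with 7.27%. The members' summed RPKM itself was 132912 in Prx1Cre 38, within the TATCre range of 99516 to 170210.

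Levels within the set spread over more than 3 orders of magnitude. The TATCre mean had a median of 55.5 RPKM over the members and ran from 5.04 to 21795 RPKM. The mean of the other 9 had a median of 11.5 RPKM. The ratio of the means, each plus 1, had a median of 3.36 and ran from 2.00 to 142, and it was at least 4 for 164 members, at least 8 for 76, at least 16 for 37 and at least 32 for 15. Over the members with a recovered length, the reads behind a member averaged 547 per TATCre library at the median. The least covered of them averaged 13, and the lowest count in a single TATCre library was 4. The 7 members without a recovered length are not covered by these counts. Members at high levels were shorter and had smaller ratios at the median. Those with a TATCre mean of at least 500 RPKM, 55 in number, had a median length of 533 bases and a median ratio of 2.89, whereas the 99 members with a mean under 20 RPKM had a median length of 1696 bases and a median ratio of 5.62.

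The member with the largest difference was uc009hgx.2, with a recovered length of 39 bases. It had 132.1 RPKM in TATCre N123-RLN, 37.8 in N123-Rleg, 240.7 in N178-Lleg and 352.5 in N179-Larm. It was listed at 0 in 8 of the other 9 clear cell sarcomas and at 3.16 RPKM in Rosa26CreER 5, a value that stands for 1 read. By the rule, no TATCre library overlapped the other clear cell sarcomas, and its TATCre levels stood for 17 to 126 reads. Its log2 difference of means plus 1, TATCre minus the other 9, was 7.15, and this value depends on the 1 that was added. The transcript was also present outside clear cell sarcoma. It had a lowest value of 0, a median of 40.5 and a highest value of 202.5 RPKM in osteosarcoma, and 0, 83.9 and 190.9 RPKM in synovial sarcoma. In the controls the lowest, median and highest values were 0, 14.2 and 31.9 RPKM. It was thus present in most libraries of every tissue except the other 9 clear cell sarcomas, with 1 or 2 libraries listed at 0 in each. None of its differences between tissues passed the test. On the log2 scale, osteosarcoma differed from control by 1.71 with an SE of 1.44 (limma, adjusted p = 0.363) and synovial sarcoma from control by 2.70 with an SE of 1.499 (limma, adjusted p = 0.149). Without the synovial sarcoma 44, the only one listed at 0, the second became 3.804 and passed the test.

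The other transcript called by name, uc008odb.1, of 1134 bases, showed another pattern. It had 295.2 RPKM in TATCre N123-RLN, 45.5 in N123-Rleg, 35.8 in N178-Lleg and 75.04 in N179-Larm. The other 9 clear cell sarcomas had 0 to 2.19 RPKM, with a median of 0.762. Both N123 libraries were above the other 9, which the rule requires, but RLN was far above Rleg. In synovial sarcoma the transcript had a lowest value of 68.1, a median of 188.3 and a highest value of 321.8 RPKM, a range that covered TATCre N179-Larm and N123-RLN and lay above the other 2 TATCre libraries. Osteosarcomas had 0 to 3.52 RPKM and controls 0 to 2.51 RPKM. The synovial sarcomas therefore overlapped neither the osteosarcomas nor the controls. The log2 fold change was 6.25 in synovial sarcoma over control with an SE of 0.46 (limma, adjusted p = 1.27e-08) and -6.69 in osteosarcoma over synovial sarcoma with an SE of 0.45 (limma, adjusted p = 2.85e-09). In osteosarcoma over control it was -0.44 with an SE of 0.45 (limma, adjusted p = 0.459).

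**Figure D2:**
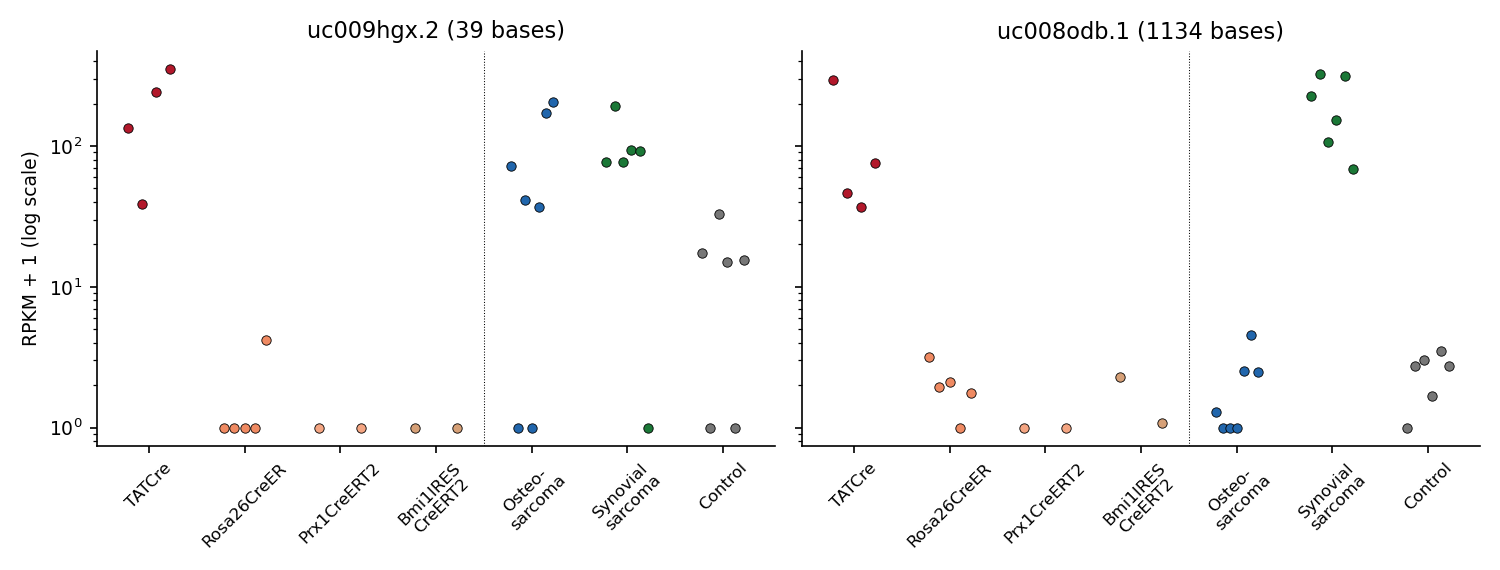
RPKM + 1 on a log scale (vertical axis) of the transcripts uc009hgx.2 (left) and uc008odb.1 (right) in each library, by group (horizontal axis), where each point is a library and a point at 1 is listed at 0 RPKM. The left transcript is at 0 in 8 of the other 9 clear cell sarcomas and present in most other libraries, and the right one reaches 68.1 to 321.8 RPKM in synovial sarcoma.

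The 4 transcripts that came next by size of the difference, among members of at least 100 bases, differed in their profiles over the other tissues. A transcript of 2988 bases had 90.3, 74.3, 92.7 and 109 RPKM in TATCre RLN, Rleg, Lleg and Larm, against 0 to 1.94 RPKM in the other 9. Its synovial sarcomas had 27 to 109.4 RPKM, while osteosarcomas stayed at or below 0.463 and controls at or below 1.57 RPKM. It is a member with close TATCre values and, like uc008odb.1, with high synovial sarcomas: the log2 fold change over control was 4.796 with an SE of 0.28 (limma, adjusted p = 7.5e-10).

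A transcript of 492 bases had 63.5 RPKM in TATCre RLN, 290.0 in Rleg, 26.9 in Lleg and 25.1 in Larm. It was listed at 0 in 7 of the other 9 clear cell sarcomas, in all 7 osteosarcomas, in all 6 synovial sarcomas and in 5 of the 6 controls. The exceptions were both Prx1CreERT2 tumours, with 1.25 and 5.43 RPKM, and a control with 1.36 RPKM. Outside the TATCre tumours it was thus nearly absent in every tissue. A transcript of 1805 bases varied more among the TATCre tumours, with 116.4 and 145.6 RPKM in RLN and Larm and 21.7 and 25.6 RPKM in Rleg and Lleg. The other 9 had 0 to 2.05 RPKM and the synovial sarcomas 9.58 to 107.1 RPKM, so the synovial sarcomas reached above Rleg and Lleg and stayed below RLN and Larm. A transcript of 1900 bases had 886.5, 550.5, 1092.9 and 259.1 RPKM in RLN, Rleg, Lleg and Larm. Among the other 9 it reached 94.7 RPKM in a Prx1CreERT2 tumour, against a median of 0.274, and it had 5.42 to 13.4 RPKM in the controls, 2.80 to 6.51 in synovial sarcoma and 0 to 1.81 in osteosarcoma. Both sarcoma types were lower than control, by a log2 fold change of -2.42 in osteosarcoma with an SE of 0.29 (limma, adjusted p = 8.65e-06) and of -0.77 in synovial sarcoma with an SE of 0.30 (limma, adjusted p = 0.0434).

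The highest TATCre mean belonged to a transcript of 114 bases. In N123-Rleg a member of 3 bases, with a TATCre mean of 17461 RPKM, was higher at 34284 RPKM. The transcript of 114 bases had 24277 RPKM in TATCre N123-RLN, 28567 in N123-Rleg, 16554 in N178-Lleg and 17781 in N179-Larm. Both Prx1CreERT2 tumours came next, with 5171 and 6909 RPKM, and the other 9 as a whole had a lowest value of 187 and a median of 984.3 RPKM. Its median was 84.3 RPKM in osteosarcoma, 674.8 in synovial sarcoma and 61.2 in the controls. The order of the medians was therefore TATCre, the other clear cell sarcomas, synovial sarcoma, osteosarcoma and control, with overlap between the last 4. Synovial sarcoma was higher than control by 3.40 on the log2 scale with an SE of 0.99 (limma, adjusted p = 0.00954), while osteosarcoma differed from control by 0.88 with an SE of 0.95 (limma, adjusted p = 0.49).

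At the low end, 21 members were listed at 0 in all of the other 9 clear cell sarcomas, of which 4 were at 0 in each of the 28 libraries outside the TATCre group. The strongest of the 4 had 54.8, 48.8, 41.8 and 52.3 RPKM in TATCre RLN, Rleg, Lleg and Larm. The other 3 had TATCre values between 3.07 and 21.3 RPKM. At the other extreme, 234 members were above 0 in all 32 libraries, so most of the set differed between the clear cell sarcomas in level and not in presence.

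The 4 TATCre tumours were not alike over the members. The highest TATCre value of a member divided by its lowest had a median of 2.22 and ran from 1.08 to 18.2. It was at least 2 for 213 members, at least 4 for 71 and at least 10 for 15. N123-Rleg held the highest TATCre value for 140 members and N179-Larm for 136, against 48 for N123-RLN and 35 for N178-Lleg. The lowest value fell to N178-Lleg for 165 members, to N123-RLN for 88, to N123-Rleg for 65 and to N179-Larm for 41. The pair that shares N123 was no closer than the others: the median absolute difference in log2(RPKM + 1) was 0.60 between RLN and Rleg and 0.38 between RLN and Larm, the smallest of the 6 pairs. Pearson correlations over the 359 members ran from 0.91 to 0.94 for the 6 pairs, as a description over transcripts that share a library.

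Some members passed the rule by little. The lowest TATCre level divided by the highest of the other 9, both plus 1, had a median of 1.37. It was under 1.1 for 62 members and at least 2 for 82. The member nearest to that limit had 392.3 RPKM in its lowest TATCre library and 392.1 in the highest of the other 9, and the nearest transcript outside it had 2622 and 2630 RPKM. At the limit on the mean, the nearest member had a TATCre mean of 5.04 RPKM and the nearest excluded transcript 4.99. At the limit on the ratio, the corresponding values were 2.00 and 1.99. Which TATCre tumours were used mattered too, although leaving any of them out can only ease the limit on the lowest TATCre level. The rule gave 438 transcripts without N123-RLN, 443 without N123-Rleg, 553 without N178-Lleg and 380 without N179-Larm. N178-Lleg most often held the lowest TATCre value, and 350 of the 553 were among the 359. With the N123 libraries averaged, 467 transcripts met the rule, 347 of them among the 359.

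The highest of the other 9 was most often Rosa26CreER 1, for 83 members, or Prx1CreERT2 4, for 71, and least often Bmi1IRESCreERT2 2, for 7, leaving out members at 0 in all 9. The other 9 were then compared by Cre among themselves. The rule used the values of these 9 and held them all below the TATCre tumours, which limits how far they can differ from each other. The counts that follow are therefore a description, and nothing is read from the members' shares beside those of all transcripts. Of the members, 308 reached 1 RPKM in at least 2 of these 9 libraries and were tested, together with 14549 transcripts in all, by limma on log2(RPKM + 1), where a call means a Benjamini-Hochberg adjusted p under 0.05.

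Prx1CreERT2 tumours lay above both Bmi1IRESCreERT2 tumours without overlap for 146 of the 308 tested members, or 47.4%, beside 25.4% of all transcripts tested, and below them for 24, or 7.79%, beside 14.8%. The median log2 fold change, Prx1CreERT2 over Bmi1IRESCreERT2, was 0.45 over the tested members and 0.03 over all. Of the tested members 5 passed the limma threshold, or 1.62%, beside 1.86% of all tested transcripts: 4 were higher, beside 0.625%, and 1 was lower, beside 1.24%. No call was left when either Prx1CreERT2 library was left out, and 3 were left without Bmi1IRESCreERT2 1.

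Between Rosa26CreER and Prx1CreERT2 tumours, 7 tested members passed the limma threshold, or 2.27%, beside 2.67% of all tested transcripts. All 7 were lower in Rosa26CreER tumours, beside 0.777% of all. The 7 had recovered lengths of 36 to 2988 bases. One of them, of 2284 bases, is shown because it had the largest fold change among those of at least 100 bases. It had 79.2, 43.97, 115.9 and 118.9 RPKM in TATCre RLN, Rleg, Lleg and Larm and 14.5 and 27.7 RPKM in the Prx1CreERT2 tumours, whereas the median of the other 9 was 1.20 RPKM. Its log2 fold change, Rosa26CreER over Prx1CreERT2, was -3.52 with an SE of 0.45. In this comparison too the calls fell to 1 without either Prx1CreERT2 library, and to 4 without Rosa26CreER 2 or Rosa26CreER 3.

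Between Rosa26CreER and Bmi1IRESCreERT2 tumours, 0 of the 308 tested members passed the limma test, beside 0.0275% of all tested transcripts. An unadjusted limma p under 0.05 was found for 62 of the 308 members, beside 2269 of all transcripts, or 15.6%. The median log2 fold change was 0.30 over the tested members and 0.16 over all.

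In the other sarcomas the members divided into groups. The median of osteosarcoma reached the lowest TATCre level for 101 members, the median of synovial sarcoma for 80 and that of the controls for 18. For 217 members the osteosarcoma median was at or below the highest of the other 9 clear cell sarcomas, as was the synovial sarcoma median for 221 and the control median for 322. By tissue, 60 members reached it in osteosarcoma only, 40 in synovial sarcoma only and 31 in both sarcomas but not in the controls. For 210 members no tissue median reached the lowest TATCre level, and for 93 not a single one of the 19 libraries outside clear cell sarcoma did. The rule chose members by this lowest level, and the same counts were not made for other transcripts. They are therefore a description of the members.

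**Figure D3:**
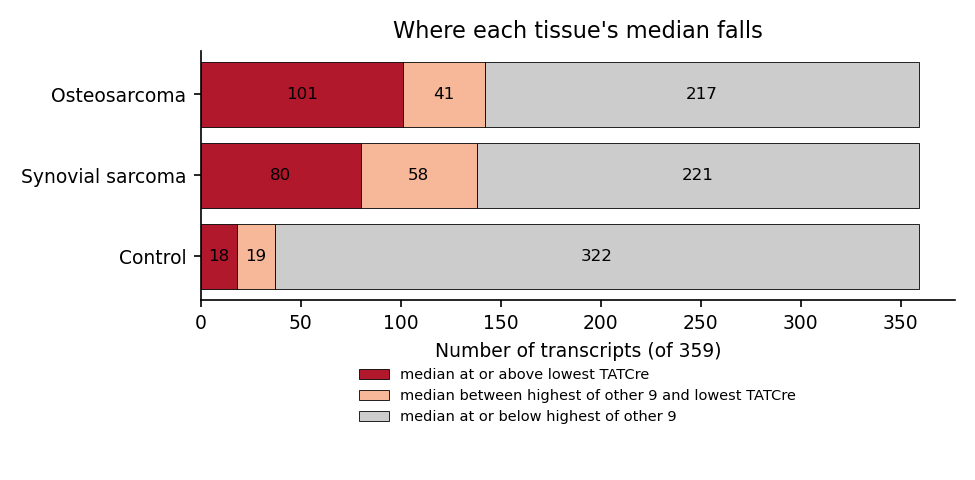
Number of members (horizontal axis, of 359) whose median in osteosarcoma, synovial sarcoma or control tissue is at or above the lowest TATCre level, between it and the highest of the other 9 clear cell sarcomas, or at or below the highest of these 9. The first of these counts is 101 in osteosarcoma, 80 in synovial sarcoma and 18 in control tissue.

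The groups differed in length and in spread. Members high in osteosarcoma only had a median length of 669.5 bases and a median TATCre mean of 68.2 RPKM, while those high in synovial sarcoma only had a median length of 1527.5 bases and a median TATCre mean of 31.9 RPKM. The ratio of highest to lowest TATCre value had a median of 1.86 in the osteosarcoma group and 3.01 in the synovial sarcoma group. The differences between these groups were not tested.

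A transcript of 670 bases, shown because it had the highest TATCre mean in the osteosarcoma group, had 3219, 3430, 3206 and 4846 RPKM in TATCre RLN, Rleg, Lleg and Larm, against a lowest value of 1305, a median of 1498 and a highest value of 2422 RPKM in the other 9. It had a lowest value of 1077, a median of 4000 and a highest value of 9523 RPKM in osteosarcoma, and a median of 1512 in synovial sarcoma and 1266 in the controls. The osteosarcomas spread around the TATCre values. They were higher than the controls by 1.55 on the log2 scale with an SE of 0.45 (limma, adjusted p = 0.0106).

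In the group high in both sarcomas, the member with the highest TATCre mean was 770 bases long and had 1528, 1489, 3439 and 3377 RPKM in TATCre RLN, Rleg, Lleg and Larm, against 580.8 to 1193 RPKM in the other 9. It reached a median of 3065 RPKM in osteosarcoma and 3427 in synovial sarcoma, and 635 in the controls. Its log2 fold changes over control were 2.22 in osteosarcoma with an SE of 0.43 (limma, adjusted p = 0.000505) and 2.26 in synovial sarcoma with an SE of 0.44 (limma, adjusted p = 0.000559).

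Few members had a control median as high as their lowest TATCre level. The one with the highest TATCre mean among those high in the controls only, of 1261 bases, had 77.9, 91.1, 128.4 and 70.8 RPKM in TATCre RLN, Rleg, Lleg and Larm, against 25.02 to 61.9 RPKM in the other 9. The controls had 58.1 to 90.3 RPKM, with a median of 77.5. Osteosarcoma was lower than control with a median of 31.3 RPKM and a log2 fold change of -1.19 with an SE of 0.31 (limma, adjusted p = 0.00473).

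The members' levels outside clear cell sarcoma were then tested, with the 19 osteosarcoma, synovial sarcoma and control libraries in 1 limma model of 13967 transcripts. The rule's ranking did not use these libraries, apart from the exclusion of 20 transcripts. Of the members, 315 reached 1 RPKM in at least 6 of the 19 and were tested, 2 of them through 1 group only, and the other 44 were too low. The controls are shared by the first 2 comparisons, so their values are given side by side. Synovial sarcomas that share the title number 37 or 39 were fitted as separate libraries. Nothing says whether they came from 1 animal, so their p-values may rest on fewer independent samples.

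Many tested members were higher in osteosarcoma than in control tissue. In the values as deposited 175 of the 315 were higher, or 55.6%, beside 27.7% of all tested transcripts, and 20 were lower, or 6.35%, beside 13.9%. The higher share was 46.03% after median ratio scaling and 47.3% after quantile normalization. Since members have a TATCre mean of at least 5 RPKM, the share among tested transcripts with such a mean is the closer background, and it was 38.1% higher and 10.4% lower. The median log2 fold change was 1.32 over the tested members and 0.30 over all tested. The 7 osteosarcomas lay above the 6 controls without overlap for 84 tested members, or 26.7%, beside 9.42% of all. The member with the largest rise of at least 100 bases, 1286 bases long, had a lowest value of 198.9, a median of 770.3 and a highest value of 2855 RPKM in osteosarcoma, against 26.7, 36.7 and 69.2 RPKM in the controls. It was higher by a log2 fold change of 4.40 with an SE of 0.43 (limma, adjusted p = 1.46e-06). The largest fall among members of at least 100 bases was that of a transcript of 598 bases, with 0 to 7.40 RPKM in osteosarcoma against 82.7 to 319.9 in the controls and a log2 fold change of -5.55 with an SE of 0.54 (limma, adjusted p = 1.57e-06). In TATCre tumours that transcript had 1159, 2397, 498.9 and 1064 RPKM in RLN, Rleg, Lleg and Larm, and in the other 9 a median of 11.4 RPKM.

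In synovial sarcoma, 172 of the 315 tested members were higher than in control tissue, or 54.6%, beside 38% of all tested transcripts and 45.4% of those with a TATCre mean of at least 5 RPKM. A further 7 were lower, or 2.22%, beside 7.03% of all and 4.95% of those with such a mean. The median log2 fold change was 1.301 over the tested members and 0.64 over all tested. The synovial sarcomas lay above the controls without overlap for 139 tested members, or 44.1%, beside 28.6% of all. The largest rise among members of at least 100 bases was that of a transcript of 900 bases, with 142 to 298.9 RPKM in synovial sarcoma against 0 to 1.09 RPKM in the controls. It was higher by a log2 fold change of 7.09 with an SE of 0.85 (limma, adjusted p = 4.06e-06). It had 230.1, 88.5, 199.9 and 110.2 RPKM in TATCre RLN, Rleg, Lleg and Larm, against 2.53 to 40.6 in the other 9. In osteosarcoma it had a median of 6.25 RPKM and, in 1 library, 151.3 RPKM.

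These shares depended on how the libraries were scaled. Under median ratio scaling the median log2 fold change of all tested transcripts moved by -0.32 in osteosarcoma against control and by -0.59 in synovial sarcoma against control. Then 46.03% of the tested members were higher and 9.84% lower in osteosarcoma, beside 18.6% and 21.9% of all, and 33.02% were higher and 7.62% lower in synovial sarcoma, beside 17.6% and 15.5% of all. Relative to the shifting median of all transcripts, the members' median was higher by 1.02 in osteosarcoma as deposited and by 0.95 after scaling, and by 0.67 and 0.64 in synovial sarcoma. The closer background, tested transcripts with a TATCre mean of at least 5 RPKM, was used only for calls in the values as deposited. For scaled shares, shares without overlap and median fold changes it was not computed.

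Between the sarcomas, 103 of the 315 tested members differed, beside 27.1% of all tested transcripts: 45 were higher and 58 lower in osteosarcoma than in synovial sarcoma, or 14.3% and 18.4%, beside 5.01% and 22.1% of all. Among tested transcripts with a TATCre mean of at least 5 RPKM these shares were 5.7% and 19.1%, so the members' share of lower calls was near that background. The direction of this split was not stable. Median ratio scaling gave 75 higher and 53 lower members, quantile normalization gave 64 and 51, and leaving out the osteosarcoma Prx1Cre 42, in which the members had their lowest mean level of the 7, gave 74 and 60. Averaging the synovial sarcomas that share a title number, 37 or 39, left 57 calls, 14 higher and 43 lower. The largest difference in favour of osteosarcoma among members of at least 100 bases was in a transcript of 118 bases, with 18.9 to 298.1 RPKM in osteosarcoma against 0 to 16.9 in synovial sarcoma and a log2 fold change of 3.81 with an SE of 0.82 (limma, adjusted p = 0.00203). The largest in favour of synovial sarcoma was that of uc008odb.1, described above.

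**Figure D4:**
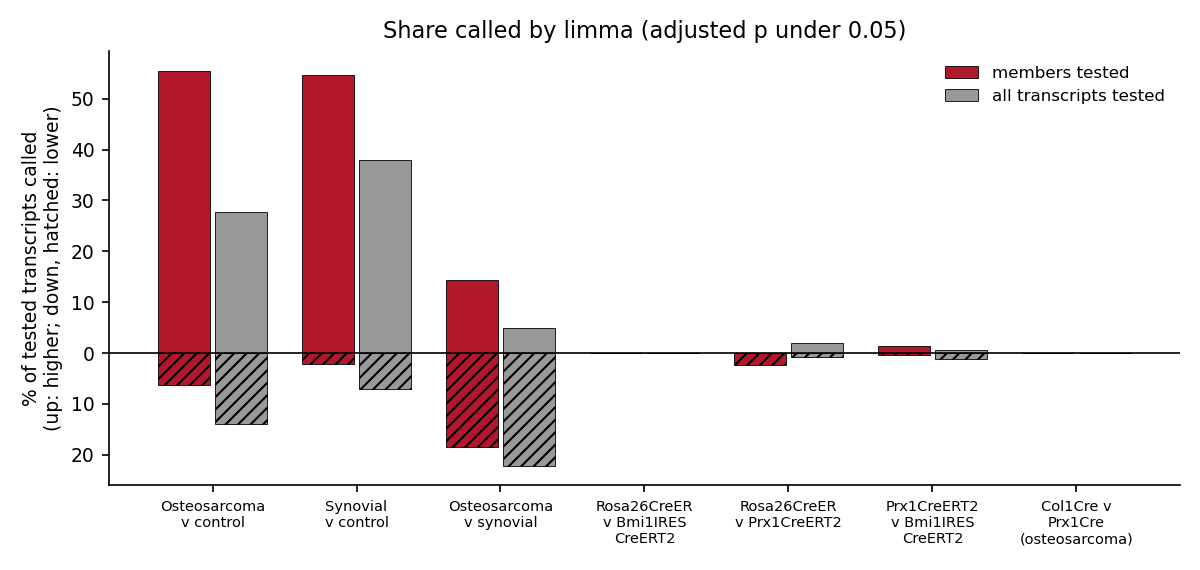
Percentage of tested transcripts called at a limma adjusted p under 0.05 (vertical axis) in 7 comparisons (horizontal axis), for tested members (red) and all tested transcripts (grey). Plain bars above the line are higher in the group named first, and hatched bars below it are lower. In osteosarcoma against control, 55.6% of tested members and 27.7% of all were higher.

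Single osteosarcomas and synovial sarcomas differed widely in how far they shared the members' TATCre levels. The number of members at or above their lowest TATCre level ran from 49 in Col1Cre 26 to 165 in Prx1Cre 38 among the osteosarcomas, and from 51 in 37-4 and in 44 to 152 in 39-5 among the synovial sarcomas. The controls had 8 to 38. The 4 Col1Cre osteosarcomas had 49, 110, 131 and 134 such members and the 3 Prx1Cre ones 61, 88 and 165, so the Cre groups overlapped. The RPKM of all transcripts in Prx1Cre 38 summed to 1.632 M, the highest of the 32 libraries, and the part of this sum in the count was not tested. Between Col1Cre and Prx1Cre osteosarcomas, 0 of 291 tested members passed the limma test, beside 0% of the 12623 transcripts tested. An unadjusted limma p under 0.05 was found for 12 of the 291 members, beside 570 of the 12623 transcripts, or 4.52%.

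Some members lay close together in the table. Of the 359, 74 were at most 5 rows from another member, with 23 pairs in adjacent rows. Rows close together may be transcripts of 1 gene that share reads, which the files do not say. Over the 32 libraries, log2(RPKM + 1) correlated with a median Pearson r of 0.73 for the 39 neighbouring pairs at most 5 rows apart and 0.49 for consecutive members further apart, as a description, and 13 of the 39 pairs had an r of at least 0.9. Whether neighbouring members are independent measurements was not tested.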

How the data were processed

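Per the labels' protocols, total RNA came from Qiagen RNeasy columns with DNase, and sequencing libraries from Illumina TruSeq reagents. CASAVA 1.8.2, Novoalign 2.07.03 and the build mm9 come from the submitters' processing notes, and no source used here names the read counter. The authors deposited RPKM values of 55419 transcripts in 32 libraries, with no column left over (0 unused). Libraries were grouped by label.

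Relative to these deposited values, everything else was computed here. Whole reads, depths and transcript lengths were recovered from the RPKM steps and tested on simulated data. Tests used limma 3.58.1 in R 4.3.3 (eBayes with trend, two-sided) on log2(RPKM + 1), which understates changes at low levels. Tested transcripts had at least 1 RPKM in at least 6 of 19, 2 of 9 or 3 of 7 libraries. Tables used Python 3.11.15. Replicate numbers shared between Cre groups were not used to pair the libraries in the main fits.

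The members, lists and rules were chosen with earlier results of these data known. The naming rule needed gene names, so its fallback was used: the 2 members with the largest difference in log2(mean + 1). The marker and pathway lists could not be applied for the same reason. The other described members, of at least 100 bases, have the highest TATCre mean in a tissue class, the next largest differences, or the largest called fold change in a comparison, and were chosen after their values were seen. A deposited table of human tumours was not analysed here.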

Additional observations from a re-analysis of the deposited data

Results flagged for a closer look

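Over 27 groups of 4 to 7 libraries in which the members' summary values and the 2 named transcripts were checked, 3 libraries stood far from the rest of their group. The flag rule is set so that chance alone flags about 1 group in 20 when values are normally distributed. Its rate for skewed RPKM values with many at 0 was not computed. In the TATCre tumours, uc008odb.1 had 295.2 RPKM in N123-RLN, whereas the next highest value was 75.04 RPKM in N179-Larm, so its TATCre mean rests largely on 1 library. Among the osteosarcomas it had 3.52 RPKM in Col1Cre 27, with a next highest value of 1.51 RPKM. Among the Rosa26CreER tumours, uc009hgx.2 had 3.16 RPKM in Rosa26CreER 5 and was listed at 0 in the other 4, where the 3.16 RPKM stand for 1 read of a transcript of 39 bases.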

How the results depend on the processing

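The number of members was 213 with a 3-fold minimum ratio, 928 when overlap between the groups was allowed, and between 356 and 553 when each clear cell sarcoma was left out in turn. Counts of called members in osteosarcoma against control stayed between 172 and 215, and in synovial sarcoma against control between 154 and 184, over the left-out libraries, and neither moved by 1.5 times under another pseudocount, filter, scaling, trend, length limit or fit of all 32 libraries. Averaging the synovial sarcomas that share a title number is not among these settings. In osteosarcoma against synovial sarcoma the split turned to more higher than lower members under median ratio scaling (128 calls), quantile normalization (115) and without Prx1Cre 42. The count was 57 with libraries sharing a title number averaged, and 80 to 134 with single libraries left out. The cause was not tested. Keeping only lengths of at least 100 bases left 4 calls in Rosa26CreER against Prx1CreERT2 and 2 in Prx1CreERT2 against Bmi1IRESCreERT2. With the replicate block, both counts were 0, but the blocks leave little to estimate the spread from, so nothing is read from this. In their deviations from the mean of their Cre group, same-numbered libraries correlated by -0.35 to 0.39 over 5 pairs. Pairs with different numbers were not set beside them, so whether the numbers pair the libraries is not settled. Left-out libraries gave 1 to 9 calls in the first of these and 0 to 5 in the second, where a lone library was assumed to vary like the other groups. Rosa26CreER against Bmi1IRESCreERT2 and Col1Cre against Prx1Cre osteosarcoma gave 0 called members in each alternative. Of differences that passed no test, uc009hgx.2 turned to 0.13 in osteosarcoma over synovial sarcoma with shared numbers averaged, and ran from -0.70 to 2.91 in Col1Cre over Prx1Cre osteosarcoma. For uc008odb.1, Prx1CreERT2 over Bmi1IRESCreERT2 turned to 0.085 with the replicate block, and Rosa26CreER over Bmi1IRESCreERT2 ran from -0.29 to 0.79.

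Depth limits what can be seen at low levels, most of all for short transcripts. At a recovered length of 39 bases, a single read in Rosa26CreER 5 was worth 3.16 RPKM. Levels at 0 could not be told from low ones there. Intervals for counting error were not computed, since PCR reads are not independent molecules.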
